A study of Mus musculus with 27 samples.

Results

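The genes described here encode the proteasome, the complex that degrades most short-lived proteins of the cell, and they were measured by RNA-seq in the brains of mice with and without an enhancer next to Igf2. They were taken as every row of the deposited frontal cortex (FX) and striatum (STR) count tables whose Ensembl identifier belongs to a protein-coding mouse gene named Psma to Psmg with a number. This gave 47 of 52636 gene identifiers, 32688 of which could be paired with a symbol. They comprise 8 core alpha genes (Psma), 8 core beta genes (Psmb1 to Psmb7 and Psmb11), 2 immunoproteasome genes (Psmb8 and Psmb10), 6 ATPases (Psmc), 14 non-ATPase regulatory genes (Psmd), 4 activators (Psme), the inhibitor Psmf1 and 4 assembly chaperones (Psmg). Psmb9, the remaining immunoproteasome gene, was not analysed here.

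The 27 libraries came from adult mice of the 129S1 strain, about 2.5 months old, that were either wild-type or homozygous for the deletion Igf2enh-/-. There were 6 wild-type and 6 Igf2enh-/- libraries of frontal cortex, each with 3 females and 3 males. Striatum gave 7 wild-type libraries (3 females, 4 males) and 8 Igf2enh-/- libraries (4 females, 4 males). The deleted fragment (chr7:149796331-149801250 in mm9, between H19 and Igf2) was removed by targeting embryonic stem cells, and a single loxP site stayed behind after Hprt-CRE had cut out the Pgkneo cassette. The deletion is in the germ line, so every cell of these mice carries it, and no group was restricted to a cell type. Which libraries of the 2 regions share a mouse is not in the labels, so all libraries were treated as independent, and p-values measure the spread between these libraries.

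The proteasome is a barrel of 4 stacked rings: outer rings of alpha subunits gate the chamber and inner rings of beta subunits cut the protein, with Psmb6, Psmb7 and Psmb5 as the active subunits. A cap of ATPases (Psmc) and non-ATPase subunits (Psmd) binds ubiquitin-tagged proteins, removes the tag, unfolds the substrate and threads it into the barrel. Interferons induce Psmb8, Psmb9 and Psmb10, which take the places of Psmb5, Psmb6 and Psmb7, and also the activator pair Psme1 and Psme2. In neurons the proteasome sets the abundance of synaptic proteins.

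Libraries held 23686945 to 33926904 counted reads, of which the 47 genes took 0.268% to 0.286% in frontal cortex and 0.251% to 0.270% in striatum. Levels below are CPM, counts scaled to the library total, further scaled by edgeR's TMM factors, with values between genes compared only after division by exon length (CPM per kb). Within the groups, no library pair was alike within sampling noise. Igf2 lies beside the deletion and is no test of it. Its medians in frontal cortex were 71.3 CPM in wild-type (range 52.0 to 107.1) and 119.2 CPM in Igf2enh-/- libraries (88.4 to 172.9). In striatum they were 37.1 CPM in wild-type (34.1 to 44.0) and 51.8 CPM in Igf2enh-/- libraries (46.0 to 257.6). The striatal label was borne out by 9 medium spiny neuron markers, which summed to 3789 to 10470 CPM in striatum and 177.3 to 258.6 CPM in frontal cortex. However, 4 cortical projection neuron markers (Slc17a7, Neurod6, Tbr1 and Neurod2) were above 0 in every striatal library, and their sum ran from 17.8 to 967.6 CPM there against 1871 to 2096 CPM in frontal cortex. Choroid plexus markers summed to 28.2 to 3280 CPM in striatum, with a median of 45.4 CPM and at most 65.9 CPM in wild-type striatum.

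Sequence upstream of the genes is shown first for Psmb10 and Psmg4, because these had the 2 largest differences between the regions. Each window is a RefSeq promoter of GRCm38.p6, with 250 bases before and 50 bases after the annotated start, in the direction of the gene. Capitals mark letters of an interferon-stimulated response element (a pair of GAAA runs with 2 bases between them, searched on both strands), the motif that interferon regulatory factors bind. Psmb10 lies on the minus strand (ENSMUSG00000031897, window chr8:105938343-105938642) and Psmg4 on the plus strand (ENSMUSG00000071451, window chr13:34162714-34163013).
Psmb10: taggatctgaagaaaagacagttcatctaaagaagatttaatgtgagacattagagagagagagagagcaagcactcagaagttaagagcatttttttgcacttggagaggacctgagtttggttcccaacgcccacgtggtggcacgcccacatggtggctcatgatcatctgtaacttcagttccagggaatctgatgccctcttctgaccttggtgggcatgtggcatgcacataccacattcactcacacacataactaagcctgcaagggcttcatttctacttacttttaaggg
Psmg4: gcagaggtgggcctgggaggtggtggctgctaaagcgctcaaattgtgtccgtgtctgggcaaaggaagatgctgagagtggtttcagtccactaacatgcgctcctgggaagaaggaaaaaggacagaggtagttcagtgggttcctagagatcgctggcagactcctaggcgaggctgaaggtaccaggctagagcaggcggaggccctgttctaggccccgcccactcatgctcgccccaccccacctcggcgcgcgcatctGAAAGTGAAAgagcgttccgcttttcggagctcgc

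The Psmg4 window held the element once, starting at base 16 after the gene's start, whereas these letters were not in the Psmb10 window. In all, 42 promoter windows were found for 39 of the 47 genes, and 5 of the 42 windows (11.9%) held the element, against 3.44% of 32851 promoters of all genes. The other 4 genes were Psmb3, Psmd4, Psmd9 and Psme1, the last of which encodes an interferon-induced activator. The windows below show each match in capitals with the bases beside it, because these genes differ in role and in their region difference.
Psmb3: cagtgactTTTCACTTTCcgctttcc
Psmd4: aaccaaccTTTCCATTTCtgtggcgc
Psmd9: gacagaatGAAAAAGAAAggaatgaa
Psme1: agctgtgcTTTCGCTTTCccttcccg
Psmg4: gcgcatctGAAAGTGAAAgagcgttc

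Many proteasome genes are raised together by Nfe2l1, a factor that binds antioxidant response elements, and the core of that element was searched as TGACNNNGC on both strands. It was present in 6 of 42 windows (14.3%, 12.4% of all promoters). Among them were both Psmb5 and Psmb6, which encode active core subunits.
Psmb5: tgaagttgTGACGTCGCggcgttgc
Psmb6: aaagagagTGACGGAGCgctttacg
Psmc6: agccagtaGCTAAGTCAggcattgc
Psmd12: tctGCTGTGTCAcatttgcc
Psmd9: ctagccggTGACCCCGCccacttcc
Psme4: ctgcggctGCAGCGTCAccagaaga

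No match of one of these motifs overlapped a match of the other, and Psmd9 held both. The CCAAT box was present in 13 of 42 windows (31.0%, 37.4% of all promoters). None of the 3 motifs was in the windows of Psmb8 or Psmb10. A match describes letters and not binding.

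Levels spread over more than 3 orders of magnitude between genes. In frontal cortex the highest median per length was that of the ATPase Psmc5 (97.3 CPM per kb, range 91.5 to 106.4). The core gene Psmb1 was next (90.6, range 88.0 to 91.9). Their ranges overlapped, but Psmc5 was above Psmb1 in every frontal cortex library. Then came the ATPase Psmc1 (76.7, range 71.3 to 81.1), whose libraries were all below those of Psmb1. In striatum Psmb1 (92.6, range 85.7 to 99.0) was above all libraries of Psmc5 (81.3, range 75.5 to 84.8).

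Within the classes, the alpha genes ranged in frontal cortex from Psma6 (51.1 CPM per kb) down to Psma3 (13.6 CPM per kb), with Psma8, a subunit of the testis proteasome, at 0.26 CPM per kb. Beta genes ran from Psmb1 to Psmb5 (9.60 CPM per kb), with Psmb11, a thymus subunit, at 0.09 CPM per kb. Of the possible reads of Psmb5, 39.1% match elsewhere in the genome. The lowest ATPase was Psmc2 (17.9 CPM per kb). Non-ATPase genes ran from the lid scaffold Psmd7 (56.4 CPM per kb) to the base chaperone Psmd9 (4.34 CPM per kb). Psme3 stood highest among the activators (35.6 CPM per kb) and Psme4 lowest (7.24 CPM per kb). Assembly genes were all low, from Psmg2 (10.6 CPM per kb) to Psmg4 (5.27 CPM per kb). Psme3 to Psme4 and Psmd7 to Psmd9 were also the highest and lowest of their classes in striatum, whereas Psmg3 (6.43 CPM per kb) was the lowest assembly gene there.

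Psma8 had 2 to 17 counts and Psmb11 0 to 20 counts per library, the latter with 1 library at 0, where 3 counts, the limit that a count of 0 allows, came to 0.0884 to 0.127 CPM. Both were below 1 CPM in every library and did not enter the tests. Psmb8, with 31 to 67 counts, missed this limit in 1 of 27 libraries and was tested only in frontal cortex. Consequently 45 genes were tested in frontal cortex and 44 in striatum and between the regions.

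**Figure D1:**
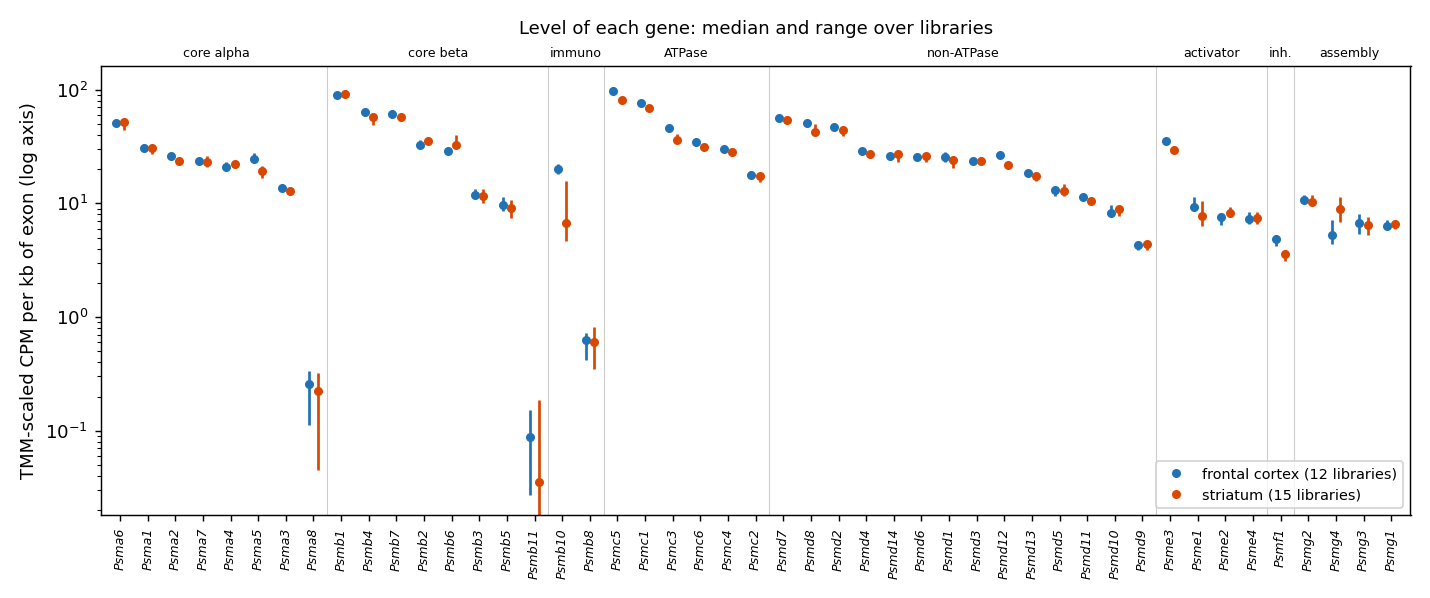
Level of all 47 proteasome genes, as the median (point) and the range (line) of TMM-scaled CPM per kb of exon on a log axis, over 12 frontal cortex libraries (blue) and 15 striatum libraries (orange), by class; 1 striatal library at 0 for Psmb11 lies off the axis. Most genes overlap between the regions, whereas Psmb10 falls from a median of 20.1 to 6.73 CPM per kb.

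The levels of the proteasome genes differed little between frontal cortex and striatum, and a smaller share of them was called than of all genes. Of 44 genes tested, 26 had an adjusted p under 0.05 (Benjamini-Hochberg, quasi-likelihood test of edgeR); 4 of these were higher in striatum and 22 lower. This is 59.1% of the genes, whereas 77.5% of all 13414 genes passed (39.4% higher, 38.2% lower), so proteasome genes were called less often than genes in general. The median log2 fold change of the 44 genes was -0.08 (0.01 over all genes), and the median size of the change was 0.0981 against 0.235 over all genes. Only 10 of 44 genes changed by more than the median gene. Over the libraries themselves, 8 of 44 genes had no overlap between the regions, where 25.9% of all genes had none. In such bulk tissue, fewer cells of a type and less RNA per cell cannot be told apart. Oligodendrocyte markers were also higher in striatum, with all 7 called and sums of 4785 to 10451 CPM against 968.2 to 2070 CPM. The part of cell type in the differences was not tested.

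The core barrel was mixed. Of 7 alpha genes tested, 3 were lower and 4 did not pass. Of 7 beta genes, 2 were higher, 2 were lower and 3 did not pass (39.4% of all genes were higher and 38.2% lower). Psma5, an alpha-ring subunit (ENSMUSG00000068749), was at 30.8, 32.7 and 36.6 CPM (lowest, median and highest) in frontal cortex and at 21.9, 25.7 and 28.2 CPM in striatum, with no overlap (log2 fold change -0.38, SE 0.0338, adjusted p = 1.77e-10 by edgeR). Of its possible 75-base reads, 23.8% also match elsewhere in the genome, so part of this value depends on how such reads were counted. The other lower alpha genes were Psma2 (-0.12) and Psma3 (-0.10), the latter not called in the wild-type libraries alone. An antisense long RNA spans Psma3 exons, and the strand setting of the counting is not given in the sources used here.

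The active beta subunits went in different directions. Psmb6, with the caspase-like site, was at 52.8, 54.5 and 56.1 CPM in frontal cortex and at 57.8, 61.1 and 74.2 CPM in striatum. Every striatal library was above every cortical library, and the log2 fold change was 0.23 (SE 0.0313, adjusted p = 3.33e-07 by edgeR). Psmb7, with the trypsin-like site, was at 69.7, 74.6 and 80.9 CPM in frontal cortex and 64.7, 69.3 and 75.8 CPM in striatum, overlapping but lower on average (-0.11, SE 0.0265, adjusted p = 0.000534 by edgeR). Psmb5, with the chymotrypsin-like site, was at 7.91, 8.85 and 10.5 CPM against 6.90, 8.44 and 9.97 CPM. Its difference of -0.07 had a 95% interval of -0.18 to 0.04 (adjusted p = 0.216 by edgeR), and 39.1% of its possible reads match elsewhere. Of the non-catalytic beta genes, Psmb2 was higher (0.13) and Psmb4 lower (-0.12). The calls of Psmb7 and Psmb4 were lost in the wild-type libraries alone. Of the possible reads of Psmb7, 14.5% match elsewhere.

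**Figure D2:**
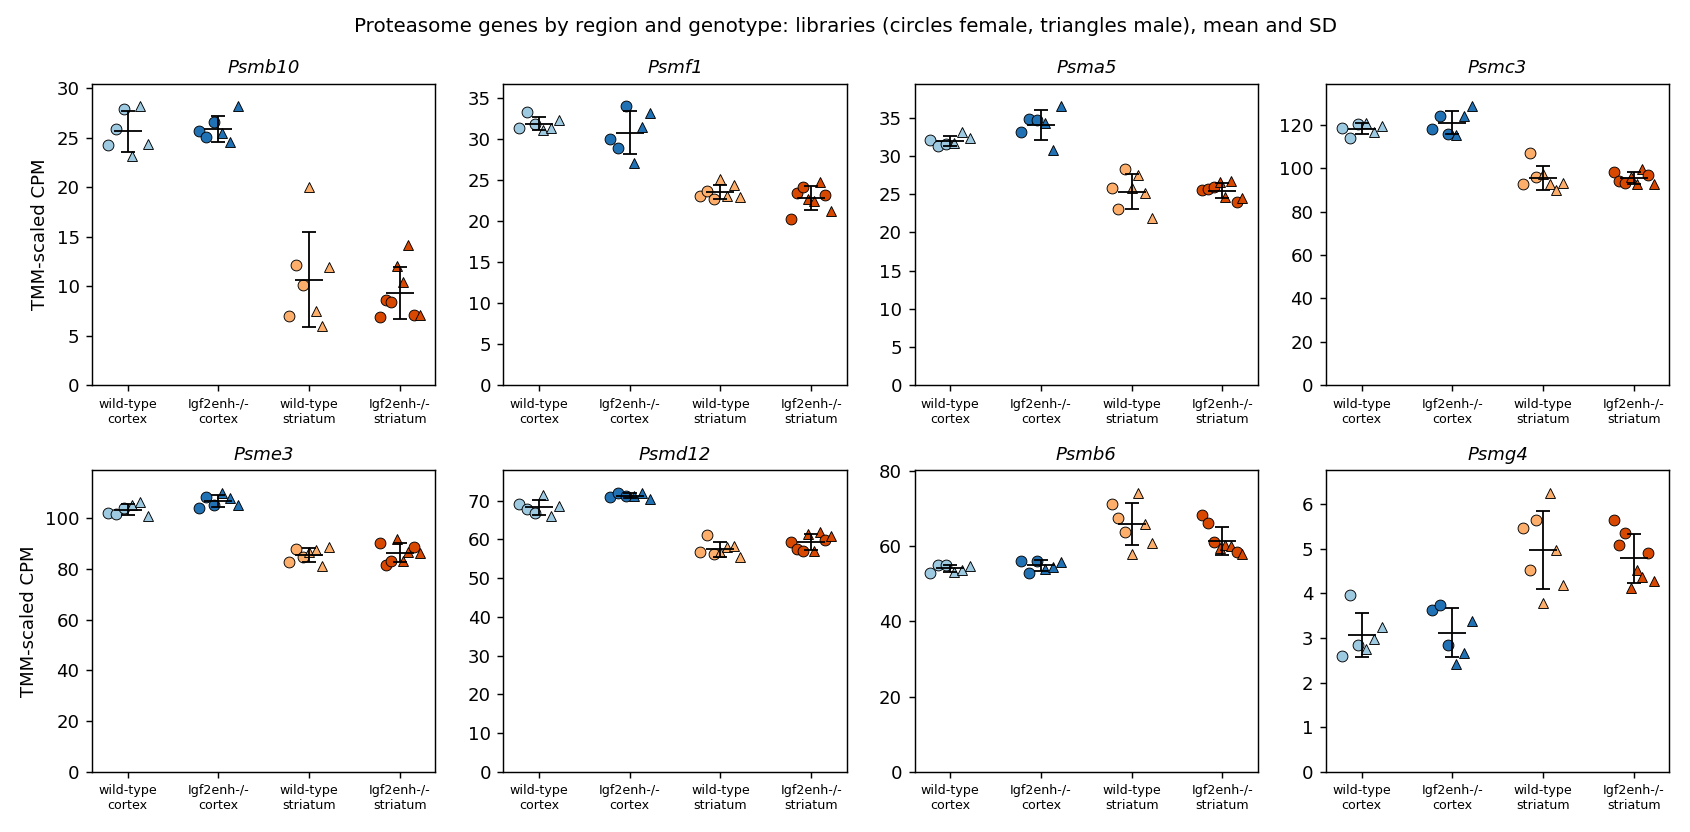
TMM-scaled CPM of 8 proteasome genes in each library (circles female, triangles male), with the mean and SD of the 6 wild-type and 6 Igf2enh-/- frontal cortex libraries and the 7 wild-type and 8 Igf2enh-/- striatum libraries; all axes start at 0. The genotypes overlap in every panel, and the regions overlap only for Psmg4, where the highest cortical library (3.98 CPM) is above the lowest striatal library (3.79 CPM).

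The immunoproteasome gene Psmb10 showed the largest difference of all proteasome genes tested. It was at 23.1, 25.5 and 28.2 CPM in frontal cortex and at 5.97, 8.55 and 20.0 CPM in striatum. No striatal library reached the lowest cortical one, and Psmb10 was 2.61-fold lower in striatum (log2 fold change -1.39, 95% interval -1.66 to -1.11, adjusted p = 7.19e-10 by edgeR). The difference was -1.29 within wild-type and -1.48 within Igf2enh-/- libraries. By level per length Psmb10 ranked 27th of the 47 genes in frontal cortex and 40th in striatum.

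Among the 44 genes tested between the regions, Psmb10 also varied most over the striatal libraries, with a coefficient of variation of 37.4%, whereas their median was 5.09% (6.42% for Psmb10 and 4.07% for the median gene in frontal cortex). The striatal libraries with most Psmb10 were those with most cortical neuron marker. Library 20 had 20.0 CPM of Psmb10 and 967.6 CPM of cortical markers, and library 23 had 14.1 and 713.1 CPM. At the other end, library 22 had 7.49 CPM of Psmb10 at 17.8 CPM of markers and library 14 had 7.00 CPM at 24.3 CPM. The part of the cortical markers in the level of Psmb10 was not tested. Without library 20 the region difference was -1.48, and without libraries 15, 20 and 22, which stand apart in their markers, it was -1.44.

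**Figure D3:**
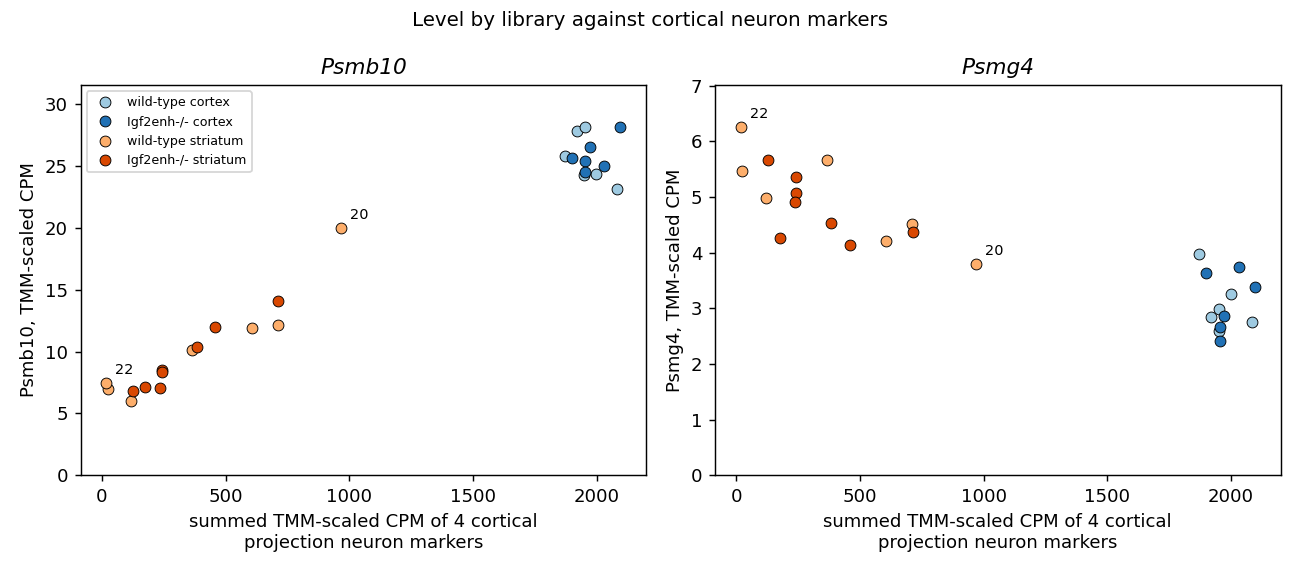
Psmb10 (left) and Psmg4 (right) in each library, in TMM-scaled CPM, against the summed TMM-scaled CPM of 4 cortical projection neuron markers; colours give region and genotype. Striatal libraries with more marker have more Psmb10 and less Psmg4, up to library 20 (20.0 CPM of Psmb10 and 3.79 CPM of Psmg4).

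Psmb8 did not follow Psmb10. It was at 1.15, 1.72 and 1.97 CPM in frontal cortex and at 0.96, 1.64 and 2.22 CPM in striatum, with overlapping libraries, and its log2 fold change in a fit without a filter was 0.02 (SE 0.112, adjusted p = 1.00 by edgeR). Set against the constitutive subunit it replaces, per length, Psmb10 came to 28.6%, 33.1% and 38.2% of Psmb7 in frontal cortex and to 8.40%, 11.7% and 29.5% in striatum. Psmb8 came to 4.48%, 6.45% and 7.50% of Psmb5 in frontal cortex and to 3.97%, 6.43% and 8.96% in striatum. By these counts both pairs held more constitutive than immune subunit RNA in every library. Of the possible reads of Psmb5 and Psmb7, 39.1% and 14.5% match elsewhere, so the percentages depend on how such reads were counted. Antisense genes span both Psmb10 and Psmb8. Gm16156, over Psmb10, had at most 5 counts in a library, and no possible read of Psmb10 matched elsewhere.

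The ATPases were the most uniform class. All 6 were called lower in striatum (38.2% of all genes were), with a class median of -0.14. Their summed level was 291.2 to 321.0 CPM per kb in frontal cortex and 250.1 to 273.4 CPM per kb in striatum, without overlap. Psmc3 was at 114.3, 119.2 and 128.9 CPM in frontal cortex and at 90.3, 94.4 and 107.2 CPM in striatum (log2 fold change -0.32, SE 0.0244, adjusted p = 6.74e-12 by edgeR). Psmc5 was at 127.6, 135.7 and 148.4 CPM against 105.3, 113.3 and 118.3 CPM (-0.27, SE 0.0213, adjusted p = 1.29e-11 by edgeR). The regions did not overlap for either (25.9% of all genes had no overlap) but overlapped for each of the other ATPases. Much of the fall in the class sum lay in Psmc5 and Psmc3. Their means fell from 97.5 to 80.7 and from 46.0 to 36.7 CPM per kb, and that of the class from 303.1 to 263.6. Psmc1 (-0.15), Psmc6 (-0.14) and Psmc4 (-0.10) fell by less. Of the possible reads of Psmc1, 11.0% match elsewhere, and 408 exon bases of Psmc3 lie within a gene of the other strand. Psmc2 (-0.05, adjusted p = 0.0450 by edgeR) was called by a small margin. This call was lost in 19 of 27 fits that left out 1 library and in 7 of 12 other alternatives, among them the likelihood ratio test, other filters, scaling by the library total and each genotype alone; Psmc4 was also lost in the wild-type libraries alone.

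Among the 14 non-ATPase genes, 7 were lower in striatum, 7 did not pass and none was higher (38.2% of all genes were lower and 39.4% higher). Psmd12, a lid subunit, was at 66.1, 70.7 and 72.0 CPM in frontal cortex and at 55.4, 57.9 and 61.8 CPM in striatum, with no overlap (log2 fold change -0.26, SE 0.0190, adjusted p = 5.00e-12 by edgeR). Psmd8, another lid subunit, was at 71.5, 77.6 and 81.9 CPM against 62.0, 64.8 and 75.2 CPM (-0.24, SE 0.0267, adjusted p = 9.75e-09 by edgeR), and here 1 striatal library lay inside the cortical range. The ubiquitin receptor Psmd4 (-0.10) and the scaffold genes Psmd1 (-0.09) and Psmd2 (-0.10), which dock ubiquitin-binding factors, were also lower, as were Psmd11 (-0.11) and Psmd13 (-0.10). The calls of Psmd4, Psmd1 and Psmd13 were lost in the wild-type libraries alone, and that of Psmd1 also in the Igf2enh-/- libraries alone. Psmd14, the deubiquitinase of the lid, was at a log2 fold change of 0.02 with a 95% interval of -0.04 to 0.08. Psmd7, its partner, narrowly missed the threshold (-0.04, adjusted p = 0.0530 by edgeR).

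The activators differed from one another. Psme3, a nuclear activator (ENSMUSG00000078652), was at 100.9, 105.1 and 110.0 CPM in frontal cortex and at 81.2, 86.5 and 91.9 CPM in striatum. This was the smallest p of any proteasome gene (log2 fold change -0.29, SE 0.0200, adjusted p = 1.46e-12 by edgeR), and the regions did not overlap. Psme1 and Psme2 encode partners in one ring yet went opposite ways. Psme1 was at 18.9, 20.7 and 25.1 CPM against 13.9, 17.2 and 23.0 CPM (-0.24, SE 0.0622, adjusted p = 0.000954 by edgeR). Psme2 was at 11.4, 13.3 and 14.2 CPM against 13.3, 14.5 and 16.5 CPM (0.17, SE 0.0387, adjusted p = 0.000416 by edgeR). Psme4, a large activator of nuclei, was at 55.4, 60.7 and 70.7 CPM against 55.7, 62.0 and 70.1 CPM, with a difference of -0.01 (95% interval -0.07 to 0.04).

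Psmf1, named for its inhibition of the barrel, was at 27.1, 31.4 and 34.0 CPM in frontal cortex and at 20.2, 23.1 and 25.1 CPM in striatum, without overlap (log2 fold change -0.43, SE 0.0338, adjusted p = 1.36e-11 by edgeR). Of the 4 assembly chaperones, which pair up to build the alpha ring, 1 was higher (39.4% of all genes were) and 3 did not pass. Psmg4 was at 2.41, 2.92 and 3.98 CPM in frontal cortex and at 3.79, 4.91 and 6.26 CPM in striatum, or 1.59-fold higher (log2 fold change 0.67, 95% interval 0.51 to 0.83, adjusted p = 2.56e-08 by edgeR). Its partner Psmg3 was at 4.54, 5.70 and 6.82 CPM against 4.43, 5.39 and 6.42 CPM (-0.09, 95% interval -0.22 to 0.04). For the pair Psmg1 and Psmg2 the differences were 0.03 (95% interval -0.04 to 0.10) and -0.04 (95% interval -0.10 to 0.02). Psmg4 was highest in library 22 (6.26 CPM) and lowest in library 20 (3.79 CPM), the libraries with least and most cortical marker. The part of that marker was not tested.

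**Figure D4:**
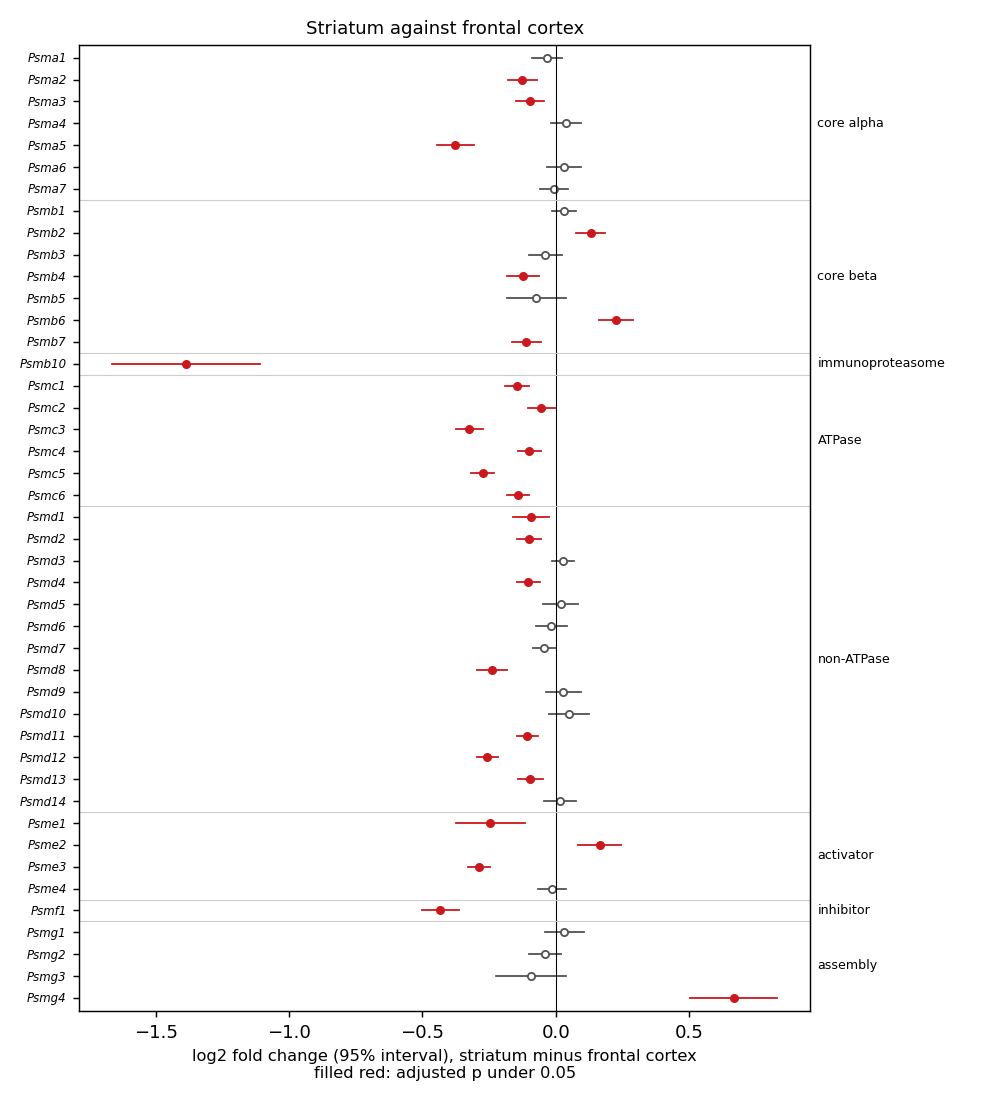
Log2 fold change with its 95% interval for the 44 proteasome genes tested, striatum minus frontal cortex over 27 libraries, by class; filled red points have an adjusted p under 0.05. All 6 ATPases lie left of 0, and Psmb10 (-1.39) and Psmg4 (0.67) lie farthest out.

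The direction of some small differences depended on scaling. With each library scaled by its total alone, 27 genes were called, 7 higher and 20 lower, against 4 and 22 with TMM factors, because Psma4, Psmb1 and Psmd3 became higher and Psmc2 and Psmd1 were no longer called; this scaling moved the median of all genes from 0.01 to 0.04. No gene among the 26 changed sign. As contrasts in the fit to all 27 libraries, the wild-type groups gave 21 called genes (67.7% of all genes) and the Igf2enh-/- groups 24 (68.9% of all genes).

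The genotype comparison asked whether loss of the Igf2 enhancer alters these genes in either region. In frontal cortex none of 45 proteasome genes passed the threshold (0.38% of all 13936 genes did), and 2 had an unadjusted p under 0.05 by edgeR's quasi-likelihood test (4.44% of the genes, 13.5% of all genes). Both DESeq2 and limma called none either. All log2 fold changes lay between -0.08 and 0.11, 37 positive and 8 negative, with a median of 0.02 (0.00 over all genes). The median size of the difference was 0.0255 against 0.0543 over all genes, and 95% intervals reached from -0.32 to 0.32 at the widest, for Psmb8. No gene separated the genotypes over all libraries, as 1.31% of all genes did.

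Psmc5 had the smallest p in frontal cortex. It was at 127.6, 129.6 and 140.0 CPM in wild-type and 134.4, 140.1 and 148.4 CPM in Igf2enh-/- libraries (log2 fold change 0.09, 95% interval 0.02 to 0.16, adjusted p = 0.245 by edgeR). These groups overlapped. Psme4 was at -0.08 (adjusted p = 0.326 by edgeR), Psmd12 at 0.06, Psma5 at 0.09 and the X-linked chaperone Psmd10 at 0.11, none past the threshold. By class, the medians were 0.03 for alpha genes (7 of 7 positive), 0.02 for beta genes, 0.03 for ATPases, 0.02 for non-ATPase genes, 0.03 for activators and 0.04 for assembly genes.

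In striatum none of 44 genes passed either (0.036% of all 13875 genes did), and 3 had an unadjusted p under 0.05 (6.82% of the genes, 10.0% of all genes). DESeq2 and limma again called none. There were 19 positive and 25 negative differences, from -0.18 to 0.06, with a median of -0.01. Psma7, an alpha-ring subunit, was at 68.5, 73.1 and 79.6 CPM in wild-type and 64.3, 69.3 and 72.0 CPM in Igf2enh-/- libraries (log2 fold change -0.11, SE 0.0371, adjusted p = 0.374 by edgeR). Psmd4 was at 75.0, 76.9 and 81.1 CPM against 69.8, 72.8 and 77.3 CPM (-0.08, adjusted p = 0.422 by edgeR). The genotypes overlapped for both. Psmc6 was at 0.06, Psmb6 at -0.10 and Psmc5 at 0.06. No gene separated the genotypes over all libraries (0.231% of all genes did).

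The balance of signs in striatum rested on single libraries. Without library 25 the counts were 25 positive and 19 negative and the median was 0.00, and without library 26 they were 15 positive and 30 negative (median -0.02). Without library 22 they were 22 and 22. In frontal cortex the median stayed between 0.02 and 0.03 whichever library was left out. The signs there ran from 30 positive and 15 negative without library 3 to 38 and 7 without library 7.

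Psmb10 did not differ by genotype beyond its spread. It was at 23.1, 25.1 and 28.2 CPM in wild-type and 24.5, 25.5 and 28.2 CPM in Igf2enh-/- frontal cortex (log2 fold change 0.01, 95% interval -0.11 to 0.13). In striatum it was at 5.97, 10.1 and 20.0 CPM in wild-type and 6.82, 8.45 and 14.1 CPM in Igf2enh-/- libraries (-0.18, 95% interval -0.66 to 0.31). Without library 20, the wild-type library with most cortical marker, the striatal value was 0.02. Another fit, chosen after seeing the data, took the log2 sum of the cortical markers as a covariate. It called 40 of 13875 genes and none of the 44 proteasome genes by genotype in striatum. In it, 5 of the 44 had an unadjusted p under 0.05, and the share of all genes at that level was not counted. Without the covariate, 5 of 13875 genes were called, and 3 of the 44 and 10.0% of all genes had an unadjusted p under 0.05. As the share of all genes under the covariate is missing, the unadjusted counts of these fits cannot be compared.

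**Figure D5:**
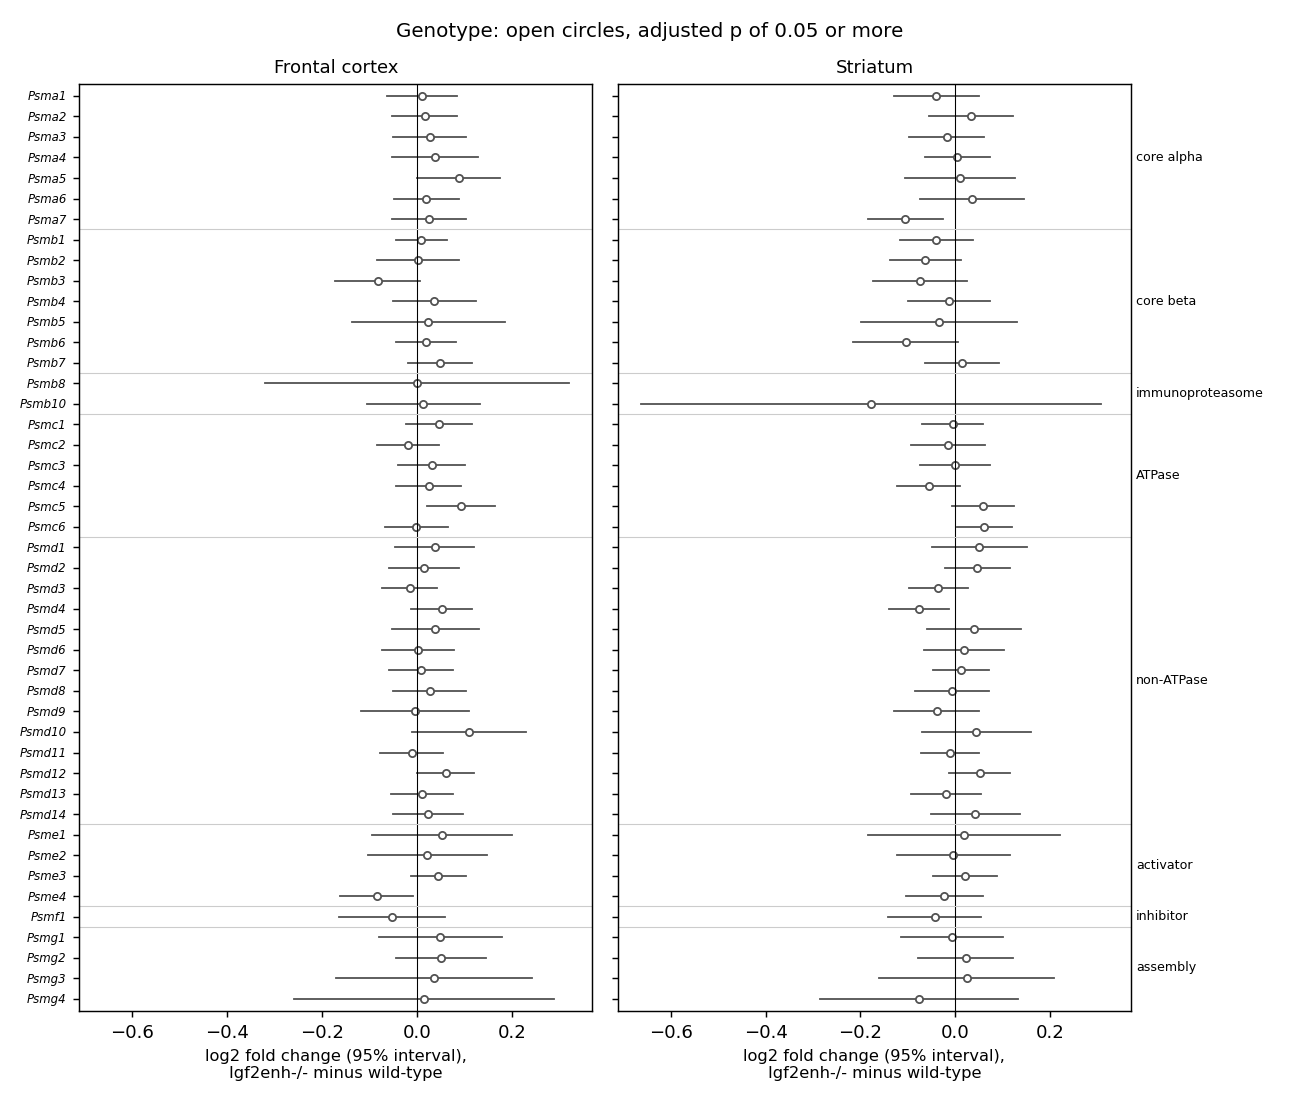
Log2 fold change with its 95% interval, Igf2enh-/- minus wild-type, in frontal cortex (left, 45 genes, 6 against 6 libraries) and striatum (right, 44 genes, 8 against 7 libraries; Psmb8 was below the filter). All points are open because no adjusted p was under 0.05; the widest intervals are those of Psmb8 in frontal cortex and Psmb10 in striatum.

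The remaining activator, inhibitor and assembly genes were not called by genotype, with intervals from narrow (Psme3) to wide (Psmg4). Psme3 was at 0.05 in frontal cortex (95% interval -0.01 to 0.10) and 0.02 in striatum (-0.05 to 0.09). Psme1 was at 0.05 and 0.02, Psme2 at 0.02 and -0.00, and Psmf1 at -0.05 and -0.04. Psmg4 was at 0.02 (95% interval -0.26 to 0.29) and -0.08 (-0.28 to 0.13), so differences of that size in either direction could not be told from none. The 4 proteasome genes on chromosome 7, which holds the deletion, are Psmd13 (1.71 Mb away in mm9), Psma1 (28.4 Mb), Psmd8 (119.8 Mb) and Psmc4 (121.0 Mb). None was called by genotype. Psmd13, the nearest, was at 0.01 in frontal cortex (95% interval -0.05 to 0.08) and at -0.02 in striatum (-0.09 to 0.05).

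Whether the genotype difference itself differed between the regions was tested as an interaction. None of 44 proteasome genes passed by edgeR (0.0% of all genes did, that is 0 of 13414), and 2 had an unadjusted p under 0.05 (4.55% of the genes, 3.02% of all genes). DESeq2 and limma also called none. These were Psmd4 (-0.13, SE 0.0410, unadjusted p = 0.00358 by edgeR) and Psma7 (-0.14, SE 0.0506, unadjusted p = 0.0130 by edgeR), each with an adjusted p of 1.00. Psmb6 (-0.13), Psmc4 (-0.08) and Psmc6 (0.06) followed. Of the 44 values, 11 were positive and 33 negative, with a median of -0.04 (-0.01 over all genes).

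Sexes were compared within each region, since both sexes were present in every group. None of the proteasome genes was called in frontal cortex (0.0431% of all genes were) or in striatum (0.0432%) by edgeR, with 3 at an unadjusted p under 0.05 in each (7.56% and 10.8% of all genes). The smallest p in both regions was that of Psme4. In frontal cortex it was at 55.4, 59.3 and 61.2 CPM in 6 females and 59.9, 65.7 and 70.7 CPM in 6 males, and 5 of 6 males were above every female (log2 fold change 0.14, SE 0.0360, adjusted p = 0.440 by edgeR). In striatum it was at 55.7, 57.4 and 62.5 CPM in 7 females and 57.8, 64.6 and 70.1 CPM in 8 males, of which 6 were above every female (0.14, SE 0.0384, adjusted p = 0.448 by edgeR). Psme4 thus had the same direction in both regions and missed the threshold in each. Libraries of the regions may share mice, so the regions cannot be taken as a repeat of each other.

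Next were Psmb7 (0.09), Psmc6 (0.08), Psmd4 (0.06) and Psmd1 (0.07) in frontal cortex and Psmd3 (-0.07), Psmb4 (-0.09), Psmg4 (-0.21) and Psmd8 (-0.08) in striatum, as male minus female. X-linked Psmd10 was at -0.00 in frontal cortex and -0.05 in striatum. The interaction of sex and genotype gave no call among them (0.0215% of all genes in frontal cortex, 0.0% in striatum). Psmg1 had the only unadjusted p under 0.05, in frontal cortex (-0.25, SE 0.105, unadjusted p = 0.0308 by edgeR), where Psmc5, Psmd13, Psmd5 and Psme2 followed. In striatum the smallest p were those of Psme4, Psmb7, Psmd11, Psmc3 and Psme1.

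Other genes of the ubiquitin-proteasome pathway were counted from whole lists. Their counts stand against 77.5% of all genes called between the regions (39.4% higher, 38.2% lower). Of 10 tested subunits and helpers not named Psm, 4 were higher and 6 lower in striatum. Uchl5 and Usp14, deubiquitinases that sit on the cap, were both lower (log2 fold changes -0.68 and -0.40, adjusted p = 3.66e-13 and 7.89e-12 by edgeR), and the small cap subunit Sem1 was higher (0.43). Of 6 genes for ubiquitin and its activation, 4 were higher and 1 lower, led by the ubiquitin fusion gene Rps27a (0.33) and the activating enzymes Uba1 (-0.19) and Uba6 (0.19). Of 10 genes that deliver substrates, 2 were higher and 6 lower, among them the shuttle Rad23b (-0.41), the p97 cofactor Nploc4 (-0.29) and Ubqln2 (0.27). Of 4 genes that control proteasome genes, Nfe2l1 (-0.20) and the protease Ddi2 that processes it (-0.18) were among 3 lower, and Nfe2l2 (0.21) was higher. None of these lists had a call by genotype or by the interaction.

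Genes of antigen processing and interferon response, among which Psmb8 and Psmb10 act, were tested for 11 of 15. None was higher and 9 were lower in striatum (39.4% and 38.2% of all genes), with a median of -0.40. Irf1, an interferon-induced activator of Psmb genes, was lower (-1.03, SE 0.0801, adjusted p = 1.24e-11 by edgeR), as were the interferon-induced GTPase Irgm1 (-0.78) and B2m (-0.56), the light chain of the antigen-presenting complex. Of 12 microglia markers 8 were called higher in striatum and none lower. They summed to 366.8 to 418.4 CPM in frontal cortex and 399.2 to 504.0 CPM in striatum. Meningeal fibroblast markers were lower in striatum, 5 of 5 tested, with sums of 86.4 to 274.6 CPM in frontal cortex and 50.4 to 301.6 CPM in striatum. This list holds Igf2, which lies beside the deletion and was called by genotype in frontal cortex (0.77, adjusted p = 0.0285 by edgeR), and without it the other 5 markers summed to 34.4 to 101.7 CPM and 16.3 to 44.0 CPM. The part of microglia and of meningeal fibroblasts in the antigen processing list was not tested.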

How the data were processed

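RNA from bulk frontal cortex and striatum was made into libraries after depletion of ribosomal RNA and sequenced as 75-base single reads. Per the submitters' processing notes the authors used Trim Galore (0.5.0), STAR and GRCm38; the deposited values are raw counts per gene, one table for each region. The strand setting of the counting is not given in the sources used here. The deposited counts were normalised with TMM factors and tested with edgeR (4.0.16, R 4.3.3) by its quasi-likelihood test, with sex as a covariate, over genes of at least 1 CPM in every library of the fit, with Benjamini-Hochberg adjustment over all genes tested and a threshold of 0.05. Genotype was tested in each region, and region and the interaction in all 27 libraries. Intervals cover 95%. DESeq2 (1.42.0) and limma (3.58.1) with voom were alternatives, as were other scalings, filters and covariates and leaving out each library in turn. Scripts were tested on simulated data. Genes called, the 5 of smallest p in each comparison, and fixed roles were named; beyond 15 calls, full statistics were given for 10. The genes and lists were chosen with earlier results of these data known. Levels, promoters and repeats were described without tests. Depth of 23686945 to 33926904 counts limits only the low genes. One cell type marker is not reported here and was left out of its list.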

Additional observations from a re-analysis of the deposited data

Results flagged for a closer look

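Of 140 sets of values, 35 proteasome genes in 4 groups of 6 to 8 libraries, 7 had 1 library far from the rest by Dixon's criterion, which chance gives in about 1 of 20 sets. In Igf2enh-/- frontal cortex, Psma2 was at 66.5 CPM in library 1, the others being at 69.0 to 70.3 CPM. In wild-type frontal cortex, Psmg1 was at 9.23 CPM in library 8 (others 8.17 to 8.55 CPM) and Psmb5 at 10.3 CPM in library 10 (others 8.52 to 9.00 CPM). In wild-type striatum, Psmb3 was at 30.9 CPM in library 22 (others 26.1 to 27.4 CPM) and Psmd8 at 75.2 CPM in library 16 (others 62.0 to 66.2 CPM). Library 26 of the same group held the lowest values of both Psmb4, at 68.5 CPM (others 78.7 to 85.0 CPM), and Psmb8, at 0.96 CPM (others 1.61 to 2.02 CPM). The causes were not tested.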

How the results depend on the processing

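No paired analysis was possible because library numbers are unique and the labels do not tie frontal cortex and striatum libraries to mice. The count of proteasome genes called by genotype in either region, and by the interaction, was 0 under every alternative run, although DESeq2 called 247 of all genes by genotype in frontal cortex against 53 by edgeR, and 112 against 5 in striatum. The smallest adjusted p over those fits lay between 0.188 and 0.451 for genotype in frontal cortex, between 0.244 and 0.762 in striatum, and at 0.987 or above for the interaction. Between the regions 25 to 27 genes were called under the other tests, scalings, filters and covariates and when each library was left out, 18 in fits to wild-type and 24 to Igf2enh-/- libraries alone. Of the 26 calls, 18 held under all of these and none changed sign. Psmb10 ranged from -1.27 (wild-type libraries alone) to -1.49 (Igf2enh-/- libraries alone). The genotype values of the immunoproteasome genes were far from the threshold. With each library left out, Psmb8 in frontal cortex (0.00) ranged from -0.085 (without wild-type library 6) to 0.074, with the sign changed in 5 of 12 such fits and 3 of 9 others, and Psmb10 there (0.01) from -0.017 (without Igf2enh-/- library 11) to 0.048, with the sign changed in 4 of 12. Psmb10 in striatum (-0.18) ranged from -0.30 to 0.018 (without wild-type library 20), the 1 of 15 such fits that changed its sign. Depth limits Psmb8, Psma8 and Psmb11.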

Other observations

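The classes can also be read as sums per library. Activators summed to 58.3 to 62.8 CPM per kb in frontal cortex and 51.3 to 56.3 CPM per kb in striatum, without overlap. Non-ATPase regulatory genes summed to 350.7 to 381.7 and 327.5 to 359.6 CPM per kb, alpha genes to 185.0 to 201.7 and 165.7 to 197.9 CPM per kb, beta genes to 289.6 to 311.5 and 277.8 to 319.7 CPM per kb, and assembly genes to 27.2 to 33.0 and 30.0 to 36.1 CPM per kb, all overlapping. The ATPase and activator sums of each striatal library were therefore below those of each cortical library, whereas the core barrel's were not. Psme3 made up most of the activator sum. Its means were 35.6 CPM per kb in frontal cortex and 29.2 CPM per kb in striatum, where the class means were 60.0 and 52.8 CPM per kb. Of the other activators, Psme1 was lower in striatum, Psme2 was higher and Psme4 was not called. Exons of 12 proteasome genes lie within a gene of the other strand (Psma3, Psma4, Psma5, Psmb7, Psmb8, Psmb10, Psmc3, Psmd1, Psmd3, Psmd9, Psmd13, Psme1). For 5 genes (Psma4, Psma5, Psmb5, Psmb7 and Psmc1) more than 10% of possible reads match elsewhere in NCBIM37. The effect on the counts of these genes was not tested.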
